A study of Rattus norvegicus with 44 samples.

Results

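Rat liver RNA was examined here for the cytochrome P450 genes apart from 13 of them, listed next. The members are the probe sets, the sets of short DNA probes that measure 1 transcript on the array, with 1 annotated gene symbol that starts with Cyp and a digit, without the 13 excluded symbols. The excluded symbols are Cyp51, Cyp3a23-3a1, Cyp3a2, Cyp3a9, Cyp3a18, Cyp2b2, Cyp2c6v1, Cyp2c7, Cyp2c11, Cyp4a1, Cyp4a8, Cyp7a1 and Cyp17a1. This left 56 probe sets of 36 genes, out of 4736 genes that had a probe set with 1 symbol. Of these, 45 probe sets of 31 genes reached a group mean intensity of 9.17 in at least 1 group and were tested. The other 11 probe sets had group means of at most 8.60.

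The arrays came from 4 studies of compounds R1 and R2, known only by these code names, in male Wistar rats that were 8 weeks old and were dosed by gavage once a day. Livers were sampled 24 h after the last of the daily doses, from the left lateral lobe, and the controls received the citric acid buffer used as vehicle. After 24 h, study 1 set vehicle (3 arrays) beside R1 doses of 10 mg/kg/day (4 arrays), 30 mg/kg/day (3) and 100 mg/kg/day (3), and study 4 set an R2 dose of 300 mg/kg/day (5 arrays) against vehicle (4). After 336 h, study 2 set vehicle (4 arrays) beside R1 doses of 20 mg/kg/day (5) and 100 mg/kg/day (4), and study 3 set 30 mg/kg/day of R1 (4 arrays) against vehicle (5). The labels do not say where replicates came from, so the spread behind the p-values is that of these arrays and can be technical, and precision is limited by their number.

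Cytochrome P450s are heme enzymes that add oxygen to drugs, hormones, fatty acids, sterols and vitamins, with electrons passed to them by P450 oxidoreductase. In hepatocytes, families CYP1 to CYP4 mostly act on foreign compounds and fatty acids, and the others make or break down bile acids, retinoids, vitamin D and steroid hormones. In rats several members of the CYP2A and CYP2C subfamilies differ strongly between males and females under the control of growth hormone.

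Intensities are given in the deposited units, which are relative within an array and cannot be set against each other between probe sets. Log2 fold changes are treated minus the vehicle of the same study on log2(intensity + 2.9), which understates the changes of dim genes, and calls are limma adjusted p-values under 0.05. Of the 56 probe sets, 34 have an identifier suffix (29 with s, 4 with g and 1 with f) by which the manufacturer marks probes that can match several transcripts. Values of near-identical genes such as Cyp2b15, Cyp2c12, Cyp2c13 and Cyp2d3 are therefore uncertain as to the member, and 13 P450 probe sets with several symbols are not members. In a piece of liver, fewer cells of a type and less RNA per cell cannot be told apart.

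Hepatocyte marker sums lay between 39921 and 53416 in all groups over 6 measured genes such as Alb and Ttr. They ranged from 39921 to 49975 at 20 mg/kg/day against 45198 to 49161 in vehicle in study 2. In study 3 they ranged from 40395 to 46054 at 30 mg/kg/day against 45958 to 46573 in vehicle. After 336 h, 1 of the 6 was called lower at 20 mg/kg/day, 1 higher and 1 lower at 30, and 1 higher at 100. Summed pericentral markers (5 of 5 genes measured, among them Glul), which belong to the hepatocytes around the central vein where Cyp1a2 and Cyp2e1 are made, ranged from 833 to 1474 with R2 against 1278 to 1902 in its vehicle group. In study 2 they ranged from 673 to 1171 in vehicle, 509 to 944 at 20 mg/kg/day and 516 to 635 at 100, and in study 3 from 667 to 965 at 30 mg/kg/day against 1088 to 2240.1 in vehicle. In study 1 they ranged from 1206 to 2051 in vehicle, 1152 to 2521 at 10 mg/kg/day, 1124 to 1780.4 at 30 and 834 to 1909.8 at 100. Among the 5, limma called Glul lower with 100 mg/kg/day R1 after 336 h (-0.87), Oat at 30 after 336 h (-2.03) and Slc1a2 at 100 after 24 h (-0.93) and with R2 (-0.75). The median log2 fold change of the 5 was -0.63 with R2. It was 0.10, -0.67 and -0.21 at 20, 30 and 100 mg/kg/day after 336 h, and -0.15, -0.20 and -0.15 at 10, 30 and 100 after 24 h. All 5 periportal markers, of the opposite zone, were called lower with R2, with a median log2 fold change of -1.19, and likewise with 100 mg/kg/day R1 after 24 h, with a median of -1.08. At 30 mg/kg/day after 24 h 2 of the 5 were called lower. After 336 h, 2 of the 5 were called lower at 20 mg/kg/day (median -0.51), 4 at 30 (-0.83) and 3 at 100 (-0.72). Their sums ranged from 2502 to 3912 with R2 against 6609 to 7786 in vehicle, from 6613 to 7288 in vehicle, 3789 to 5565 at 20 and 2793 to 7044 at 100 mg/kg/day in study 2, and from 3548 to 4205 at 30 mg/kg/day against 7024 to 7491 in vehicle in study 3. Summed bile duct markers (4 of 6 genes measured) ranged from 71.4 to 106 with R2 against 37.6 to 72.2 in vehicle, from 42.1 to 86.8 in vehicle, 62.1 to 108 at 20 and 81.6 to 181 at 100 mg/kg/day in study 2, and from 107 to 148 at 30 mg/kg/day against 43.3 to 107 in vehicle in study 3. Of the 4, only Epcam was called, higher with R2 and at all 3 R1 doses after 336 h. The median log2 fold change of the 4 was 0.55 with R2. It was -0.21, 0.22 and 0.42 at 20, 30 and 100 mg/kg/day after 336 h. Of 5 Kupffer cell markers only 1, Clec4f, was tested, and it was called lower at all 3 R1 doses after 336 h. Of 4 tested stellate cell and fibroblast markers, Col1a1 and Col3a1 were called lower at 30 mg/kg/day after 336 h and Acta2 with R2. Of 3 tested endothelial markers, Kdr was called lower at 30 and 100 mg/kg/day after 336 h. The part of these markers in the P450 values was not tested.

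Most of the calls in this group of genes were decreases, after 336 h of R1 or after 24 h of R2. Of 43 calls against vehicle in 7 comparisons, 37 were lower and 6 were higher, and they fell on 27 probe sets of 18 genes, so some genes are counted more than once. These counts include 1 higher call that the intensity filter favoured, that of Cyp1a1 at 100 mg/kg/day after 336 h, which is not used as a test result. After 24 h of R1, 0 of 45 probe sets were called at 10 mg/kg/day (6 at an unadjusted p under 0.05 in limma), where 1.24% of all 6361 tested probe sets were called (1.04% higher, 0.204% lower). At 30 mg/kg/day 0 were called (3 at an unadjusted p under 0.05 in limma), where 1.73% of all tested were (1.48% higher, 0.252% lower). At 100 mg/kg/day 1 was called, lower, where 6.4% of all tested were (3.96% higher, 2.44% lower). With 300 mg/kg/day of R2, 14 were called, all lower, where 15.3% of all tested were (7.44% higher, 7.88% lower). After 336 h, R1 at 20 mg/kg/day gave 5 calls, 2 higher and 3 lower, where 4.43% of all tested were called (2.55% higher, 1.89% lower). At 30 mg/kg/day it gave 9, all lower, where 11.3% of all tested were called (5.27% higher, 6.01% lower). At 100 mg/kg/day it gave 14, 4 higher and 10 lower, where 10.3% of all tested were called (5.11% higher, 5.2% lower). Counted by gene, with 1 probe set for each, 0, 0 and 1 (lower) of 31 genes were called at 10, 30 and 100 mg/kg/day after 24 h of R1. With R2, 8 genes were called (25.8%), all lower. After 336 h, 3 genes (9.68%) were called at 20 mg/kg/day, 2 higher and 1 lower. At 30 mg/kg/day there were 4 (12.9%), all lower, a share near the 11.3% of all tested probe sets. At 100 mg/kg/day there were 8 (25.8%), 3 higher, Cyp1a1 among them, and 5 lower.

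The median log2 fold change of the 45 probe sets that passed the intensity filter was -0.49 with R2 and -0.34 at 30 mg/kg/day after 336 h, where the median of all tested probe sets was -0.05 and -0.01. For R1 at 100 mg/kg/day and 336 h it was -0.15, and in the other 4 comparisons it lay between -0.07 and -0.02. Leaving out 1 array could move these counts. The 9 calls at 30 mg/kg/day after 336 h became 5 without R1 replicate 3. The single call at 100 mg/kg/day after 24 h became 0 without vehicle replicate 1 or 2 or R1 replicate 2 or 3, and 2 without vehicle replicate 3.

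**Figure D1:**
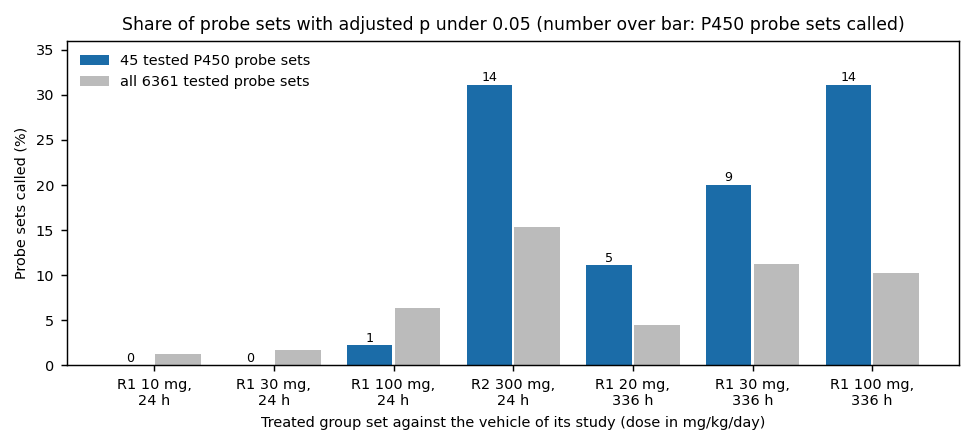
Percent of probe sets with an adjusted p under 0.05 (vertical axis) in each of the 7 comparisons of a treated group with the vehicle of its study (horizontal axis), for the 45 tested P450 probe sets (blue) and all 6361 tested probe sets (grey). The number over a blue bar is the count of P450 probe sets called, and the bars are highest for R2 and for R1 at 100 mg/kg/day after 336 h, at 14 probe sets each.

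**Figure D2:**
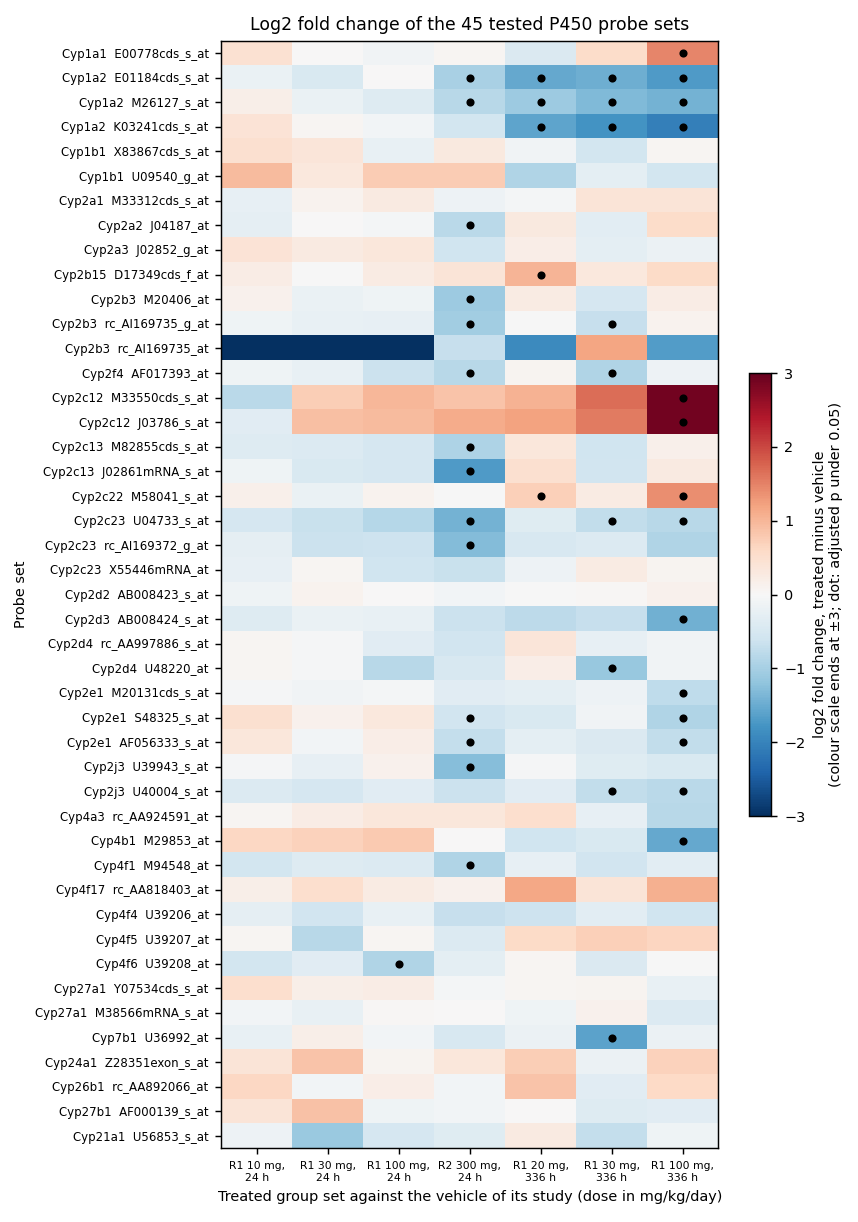
Log2 fold change of each of the 45 tested P450 probe sets (one line each, with symbol and probe set identifier) in the 7 comparisons with vehicle, from blue (lower than vehicle) to red (higher), with a dot where the adjusted p was under 0.05. The dots of the R2 column and of the 30 mg/kg/day column after 336 h all lie on blue cells, and the darkest dotted red cells are the 2 probe sets of Cyp2c12 at 100 mg/kg/day after 336 h.

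In the CYP1 family, 1 gene was called lower in several comparisons. Cyp1a2, which metabolises caffeine and aromatic amines and is made in pericentral hepatocytes, was called lower at all 3 R1 doses after 336 h by all 3 of its probe sets. Its relative Cyp1a1, the classic target of the aryl hydrocarbon receptor, was tested only because its level at 100 mg/kg/day after 336 h passed the filter, and its values are described without a test. The promoter of Cyp1a2 is shown because Cyp1a2 was called lower in 4 of the 7 comparisons with vehicle, counting R2. It is the 250 bases before the RefSeq start of the gene on the minus strand at chr8:66978150-66978399 of GRCr8, and the capitals mark a TATA box.
Cyp1a2: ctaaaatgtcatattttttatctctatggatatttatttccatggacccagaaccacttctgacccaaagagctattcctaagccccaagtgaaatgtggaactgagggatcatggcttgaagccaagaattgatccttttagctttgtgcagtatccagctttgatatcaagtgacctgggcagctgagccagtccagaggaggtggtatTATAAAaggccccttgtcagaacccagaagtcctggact
The motif TATAAA begins 39 bases before the start, and 12.9% of 33469 rat promoters of this length hold it on either strand, against 10 of the 28 member promoters in the table. The core of the xenobiotic response element, GCGTG, is not in these letters on either strand, while 25.9% of all promoters hold it. It is in 5 of the 28 member promoters, those of Cyp1b1, Cyp26b1, Cyp4f1, Cyp4f5 and Cyp4f6. Only these 250 bases were searched, so sites further from the start of Cyp1a2 would be missed.

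In study 2 the probe set E01184cds_s_at of Cyp1a2 had intensities of 1816, 998, 2303 and 2018 in vehicle livers, 594, 419.8, 652, 714 and 587 with 20 mg/kg/day R1 and 404, 489, 688 and 560.3 at 100 mg/kg/day. Neither dose overlapped the vehicle arrays, although the vehicle value of 998 lay well below the other vehicle arrays. On the log2 scale, treated minus vehicle was -1.54 ± 0.32 (SE; limma adjusted p = 0.00118) at 20 mg/kg/day and -1.69 ± 0.34 (SE; limma adjusted p = 0.000275) at 100 mg/kg/day. In study 3 it had 881, 393, 506 and 894 at 30 mg/kg/day against 2059, 1723, 2468, 2186 and 814 in vehicle livers, where vehicle replicate 5 fell within the treated range. Limma gave a log2 fold change of -1.46 ± 0.32 (SE; limma adjusted p = 0.00109).

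The other probe sets of Cyp1a2 gave changes of the same sign and similar size. M26127_s_at had log2 fold changes of -1.10, -1.33 and -1.42 at 20, 30 and 100 mg/kg/day after 336 h, with limma adjusted p of 0.00641, 0.0003 and 0.000234. K03241cds_s_at had -1.59, -1.80 and -2.04, with limma adjusted p of 0.00564, 0.00063 and 0.000199, and neither probe set had overlapping groups in these comparisons. The 3 probe sets measure 1 gene and are not independent of each other. For M26127_s_at the means were 1606 ± 270.0 in vehicle, 755 ± 173 at 20 and 609.8 ± 154 at 100 mg/kg/day in study 2 (SD; 4, 5 and 4 arrays), and 530.2 ± 123 at 30 mg/kg/day against 1362 ± 361 in vehicle in study 3 (SD; 4 and 5 arrays). The fall at 100 mg/kg/day was not distinguishable from that at 20 mg/kg/day, with differences of -0.15 ± 0.32, -0.32 ± 0.26 and -0.46 ± 0.38 between the doses (SE; limma adjusted p of 0.931, 0.735 and 0.732). The decreases of the 3 probe sets at these 3 doses were called under every alternative setting that included them and with each array left out in turn.

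After 24 h of R1, none of the 3 Cyp1a2 probe sets was called. For E01184cds_s_at study 1 gave 1623, 1690.2 and 1276 in vehicle, 1553, 1340.1, 755 and 1939.5 at 10 mg/kg/day, 1463, 531 and 1746 at 30 and 1841, 1048 and 1816 at 100. Each treated group held 1 array below all vehicle arrays and at least 1 array above them. With R2 the values were 1233, 1187, 587, 691 and 1034 against 1848, 1163, 2186 and 2099 in vehicle, and the groups overlapped. The log2 fold change with R2 was -0.96 ± 0.32 (SE; limma adjusted p = 0.0319) for E01184cds_s_at and -0.82 ± 0.26 (SE; limma adjusted p = 0.0263) for M26127_s_at, while K03241cds_s_at gave -0.54 ± 0.38 (SE; limma adjusted p = 0.369). The R2 call of E01184cds_s_at ended without vehicle replicates 1, 3 or 4 or R2 300 mg/kg/day replicates 3 or 4, with a limma adjusted p of up to 0.102. That of M26127_s_at ended without vehicle replicates 1, 3 or 4 or R2 300 mg/kg/day replicate 3, with a limma adjusted p of up to 0.0984. The effect of 100 mg/kg/day of R1 was lower after 336 h than after 24 h by -1.69 ± 0.51 (SE; limma adjusted p = 0.0409) for E01184cds_s_at and -1.96 ± 0.60 (SE; limma adjusted p = 0.0453) for K03241cds_s_at, and for M26127_s_at the difference was -1.04 ± 0.42 (SE; limma adjusted p = 0.176). The difference for E01184cds_s_at ended when any 1 of 10 of the 14 arrays compared was left out, with a limma adjusted p of up to 0.118. That for K03241cds_s_at ended when any 1 of 9 of the 14 arrays compared was left out, with a limma adjusted p of up to 0.139.

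Cyp1a1 was dim on all arrays. It passed the intensity filter only through the group at 100 mg/kg/day after 336 h, so this group had to stand above the others and no p-value is given for it. Study 2 gave 5.28, 2.75, 2.56 and 1.69 in vehicle, 1.4, 1.05, 1.03, 1.69 and 2.13 at 20 mg/kg/day and 22.9, 7.05, 9.31 and 18.3 at 100 mg/kg/day. All 4 arrays of the high dose lay above all arrays of the other groups of study 2. The means of study 2 were 3.07 in vehicle, 1.46 at 20 mg/kg/day and 14.4 at 100 mg/kg/day, and the mean was at most 4.97 in every other group of the 11. In study 3, 30 mg/kg/day gave 2.26, 9.46, 5.09 and 3.06 against 1.37, 1.43, 4.69, 1.94 and 1.86 in vehicle, with overlapping groups. Cyp1b1, the other gene of the family, was at group means of at most 14.2 and was called by neither of its 2 tested probe sets in any comparison with vehicle (3 and 0 of 7 at an unadjusted p under 0.05 in limma). Of 3 tested targets of the aryl hydrocarbon receptor that are not P450s, Nqo1 was called higher with R2 (1.70, limma adjusted p = 0.0186) and with 100 mg/kg/day R1 after 336 h (1.94, limma adjusted p = 0.0129). Nfe2l2 was called lower at 30 mg/kg/day after 336 h (-0.82, limma adjusted p = 0.0158), and the median of the 3 genes was 0.03 with R2, -0.19 at 30 and -0.32 at 100 mg/kg/day after 336 h.

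**Figure D3:**
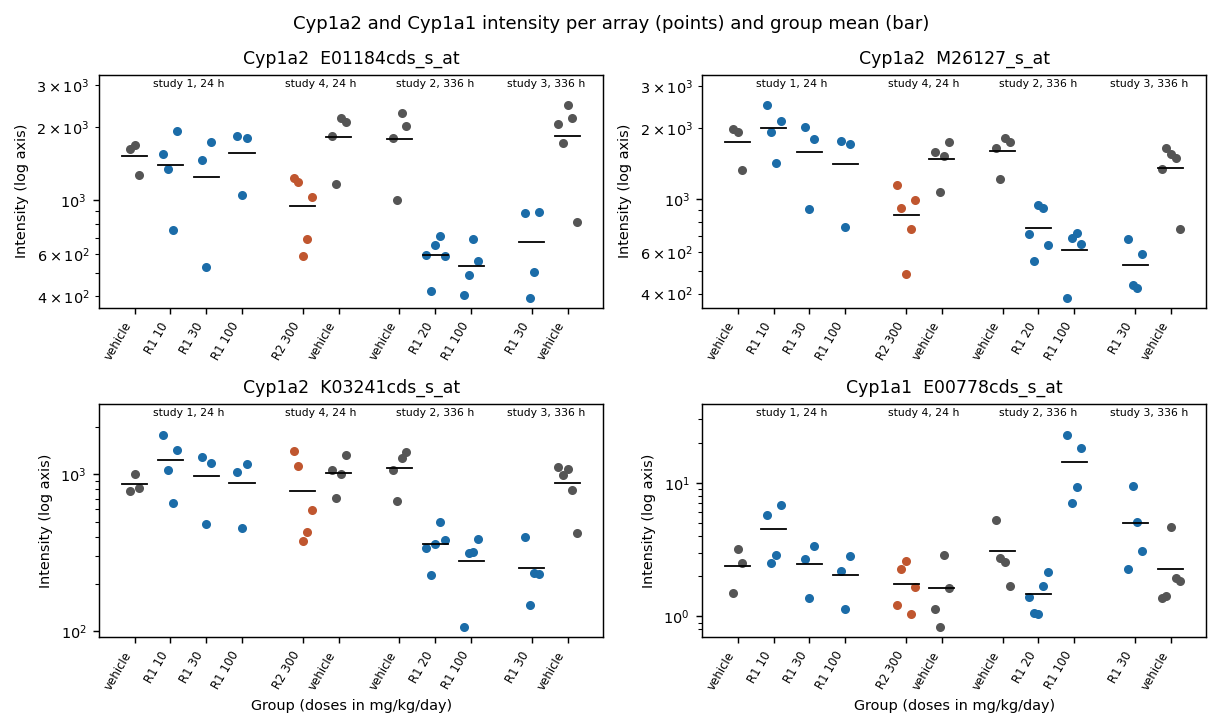
Intensity on a log axis (vertical) of the 3 probe sets of Cyp1a2 and of Cyp1a1 on each array, by group (horizontal; vehicle grey, R1 blue, R2 orange; doses in mg/kg/day), with the group mean as a bar. For each Cyp1a2 probe set the means of the 3 R1 groups at 336 h lie below the vehicle means of their studies, and the Cyp1a1 panel shows the group at 100 mg/kg/day after 336 h between 7.05 and 22.9.

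The CYP2C genes moved in both directions. Cyp2c12, a steroid hydroxylase that adult female rats express far more than males, was called higher with 100 mg/kg/day R1 after 336 h in these male livers, while Cyp2c13, a male-predominant member, was called lower with R2. The promoters of these neighbours on chromosome 1 are shown because the genes belong to 1 subfamily and were called in opposite directions, in different comparisons. Each is the 250 bases before the RefSeq start on the minus strand of GRCr8, at chr1:248677035-248677284 for Cyp2c12 and chr1:248787189-248787438 for Cyp2c13, and the capitals mark TATAAA on either strand and CAAAGTTCA, a motif of the kind bound by hepatocyte nuclear factor 4.
Cyp2c12: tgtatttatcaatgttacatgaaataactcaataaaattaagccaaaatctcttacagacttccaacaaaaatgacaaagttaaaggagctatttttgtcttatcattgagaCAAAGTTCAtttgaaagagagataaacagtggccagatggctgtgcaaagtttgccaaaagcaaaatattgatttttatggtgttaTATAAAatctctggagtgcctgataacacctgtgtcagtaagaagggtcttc
Cyp2c13: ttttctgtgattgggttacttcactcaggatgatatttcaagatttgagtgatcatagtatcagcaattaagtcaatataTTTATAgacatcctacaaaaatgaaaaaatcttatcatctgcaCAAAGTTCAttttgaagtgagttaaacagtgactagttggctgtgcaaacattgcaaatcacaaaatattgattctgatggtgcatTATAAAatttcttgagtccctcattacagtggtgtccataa
Aligned with each other, these promoters shared 170 identical bases of 250, against 131 to 136 for the other 3 pairs compared (each of the 2 with Cyp2c22, and Cyp2c12 with Cyp1a2). CAAAGTNCA begins 138 bases before the start of Cyp2c12 and 127 bases before that of Cyp2c13. It was searched for after these sequences had been read, and 1.06% of all promoters and 3 of 28 member promoters hold it. Likewise on both strands, TTCNNNGAA, a form bound by STAT5, is in 7.67% of all promoters and in 0 of the 28.

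Cyp2c12 was measured by 2 probe sets. For M33550cds_s_at study 2 gave 24.5, 86.2, 125 and 21.5 in vehicle, 235, 254, 13.5, 82.9 and 178 at 20 mg/kg/day and 355, 597, 377 and 279 at 100 mg/kg/day. The highest dose lay above all vehicle arrays, and the arrays at 20 mg/kg/day spread from below the vehicle range to far above it. The log2 fold change at 100 mg/kg/day was 2.89 ± 0.73 (SE; limma adjusted p = 0.00487) for M33550cds_s_at and 2.91 ± 0.62 (SE; limma adjusted p = 0.000719) for J03786_s_at, and at 20 mg/kg/day it was 1.05 ± 0.69 (SE; limma adjusted p = 0.533) and 1.20 ± 0.59 (SE; limma adjusted p = 0.327). In study 3 the values of M33550cds_s_at were 18.5, 24.3, 262 and 14.3 at 30 mg/kg/day against 20.2, 26.8, 0.886, 3.22 and 18.1 in vehicle. R1 replicate 3 alone was far above the rest, as it was in J03786_s_at, and the comparison was not called (1.67 ± 0.69, limma adjusted p = 0.128). With R2 the values were 37.5, 23.9, 86.3, 71.1 and 256 against 14.8, 38.4, 92.4 and 31.3 in vehicle, and the groups overlapped. Among the vehicle groups the level itself varied widely, with means of 13.9 in study 1, 44.2 in study 4, 64.4 in study 2 and 13.8 in study 3.

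The other sex-dependent members did not follow one pattern. Probe set J02861mRNA_s_at of Cyp2c13 had 445, 366, 915, 1447 and 1173 with R2 against 2807, 2539, 2372 and 2153 in vehicle, with no overlap. The log2 fold change was -1.69 ± 0.23 (SE; limma adjusted p = 4.61e-07). Its other probe set, M82855cds_s_at, had a log2 fold change of -0.93 ± 0.24 (SE; limma adjusted p = 0.00437), with overlapping groups, and its limma adjusted p was 0.0556 when study 4 was fitted alone. Cyp2a2, a male-predominant testosterone hydroxylase, had 625, 639, 559, 712 and 636 with R2 against 719.6, 1180.0, 1237 and 1474 in vehicle, again with no overlap. Its log2 fold change was -0.82 ± 0.20 (SE; limma adjusted p = 0.00305). Neither gene was called at any R1 dose. The vehicle groups differed here too, with means for J02861mRNA_s_at of 2455 in study 1, 2468 in study 4, 1223 in study 2 and 1759.9 in study 3, and for Cyp2a2 of 1127, 1153, 599.9 and 1060.0 in the same studies. The vehicle group of study 2 was the lowest of the 4 for both genes and the highest for Cyp2c12. At 100 mg/kg/day after 336 h, where Cyp2c12 was higher, Cyp2c13 had log2 fold changes of 0.28 and 0.16 and Cyp2a2 of 0.56 (limma adjusted p of 0.602, 0.818 and 0.0922). The excluded Cyp2c11, the main male-specific P450, was called lower there, with a log2 fold change of -3.40 (limma adjusted p = 7.36e-10). Cyp2a1, expressed more in females, was called in 0 of the 7 comparisons (0 at an unadjusted p under 0.05 in limma), with log2 fold changes between -0.25 and 0.39.

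Cyp2c22, which is known to act on retinoids in rat liver, was called higher in study 2 and nowhere else. It had 716, 492, 637 and 749 in vehicle, 1007, 1016, 710.0, 1391 and 1276 at 20 mg/kg/day and 1522, 2343, 1320.1 and 1769.6 at 100 mg/kg/day. The highest dose lay above all vehicle arrays, and the array of 20 mg/kg/day replicate 3 fell within the vehicle range. On the log2 scale, treated minus vehicle was 0.71 ± 0.20 (SE; limma adjusted p = 0.0249) at 20 and 1.40 ± 0.21 (SE; limma adjusted p = 1.99e-06) at 100 mg/kg/day. The call at 20 mg/kg/day ended without vehicle replicates 2 or 3 or R1 20 mg/kg/day replicates 4 or 5, with a limma adjusted p of up to 0.146. The vehicle mean of study 2, 648, was itself well below those of study 1 (1986), study 4 (2140.5) and study 3 (2535), so that even the high-dose mean of 1739 was under the vehicle means of the other studies. In study 3, 30 mg/kg/day gave a mean of 2989 against 2535 in vehicle, with a log2 fold change of 0.24 ± 0.20 (SE; limma adjusted p = 0.57). The effect of 100 mg/kg/day after 336 h minus that after 24 h was 1.31 ± 0.32 (SE; limma adjusted p = 0.00805), and it was called under every alternative and with each array left out. The difference between 100 and 20 mg/kg/day was 0.69 ± 0.20 (SE; limma adjusted p = 0.0355). That call ended without R1 20 mg/kg/day replicates 1, 2 or 3 or R1 100 mg/kg/day replicates 2 or 4, with a limma adjusted p of up to 0.204.

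Cyp2c23, the main arachidonic acid epoxygenase of rat kidney, which is also made in liver, was called lower in 3 comparisons. U04733_s_at had 710.0, 1028, 1576, 1606 and 1432 with R2 against 2456, 3259, 3240.3 and 4409 in vehicle, with no overlap. Limma gave a log2 fold change of -1.43 ± 0.23 (SE; limma adjusted p = 1.1e-05) for this probe set and -1.29 ± 0.33 (SE; limma adjusted p = 0.00418) for rc_AI169372_g_at, while X55446mRNA_at, the remaining tested probe set, was not called in any of the 7 comparisons (0 at an unadjusted p under 0.05 in limma). After 336 h U04733_s_at gave -0.73 ± 0.23 (SE; limma adjusted p = 0.0298) at 30 mg/kg/day and -0.83 ± 0.24 (SE; limma adjusted p = 0.0189) at 100 mg/kg/day, and rc_AI169372_g_at, not called, gave -0.42 ± 0.33 (SE; limma adjusted p = 0.536) and -0.89 ± 0.35 (SE; limma adjusted p = 0.1). The call at 30 mg/kg/day ended without R1 30 mg/kg/day replicates 2 or 3 or vehicle replicates 1, 3 or 5, with a limma adjusted p of up to 0.203. The call at 100 mg/kg/day ended without vehicle replicate 2 or R1 100 mg/kg/day replicate 1, with a limma adjusted p of up to 0.175. After 24 h of R1 its means were 3552 in vehicle, 2482 at 10 mg/kg/day, 2219 at 30 and 1938 at 100, and the comparison at 100 mg/kg/day gave -0.86 ± 0.28 (SE; limma adjusted p = 0.0561).

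**Figure D4:**
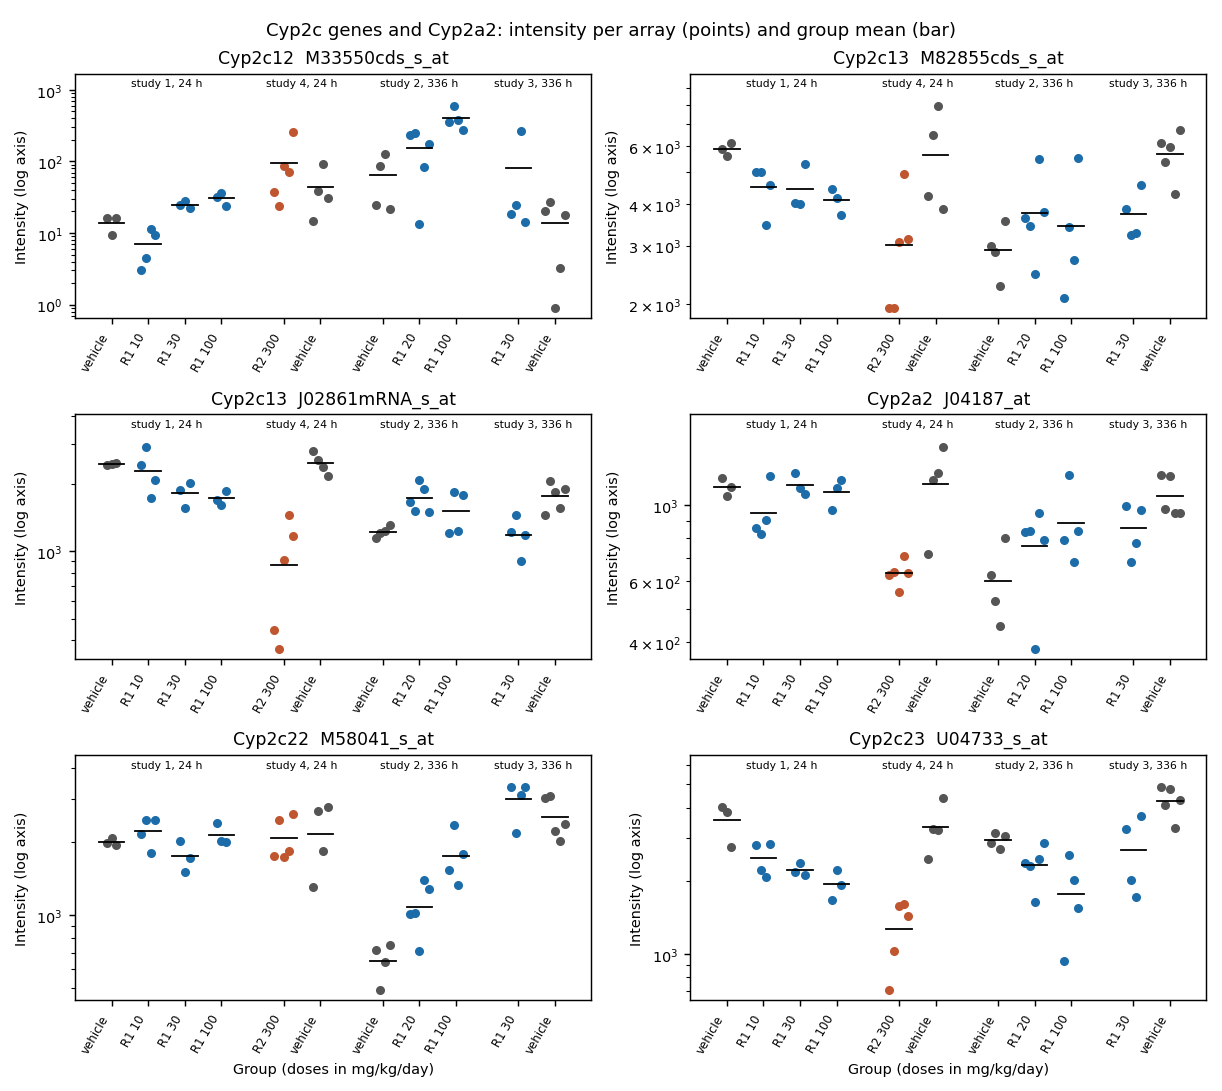
Intensity on a log axis (vertical) on each array of Cyp2c12 (1 of its 2 probe sets), Cyp2c13 (2 probe sets), Cyp2a2, Cyp2c22 and Cyp2c23, by group (horizontal; vehicle grey, R1 blue, R2 orange; doses in mg/kg/day), with the group mean as a bar. The Cyp2c12 arrays at 100 mg/kg/day after 336 h lie between 279 and 597, the R2 arrays of Cyp2a2 and of Cyp2c13 by J02861mRNA_s_at lie below those of their vehicle group, and the vehicle arrays of Cyp2c22 in study 2 lie below those of the other studies.

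In the CYP2D subfamily, relatives of the human debrisoquine hydroxylase, the members behaved differently from each other. Cyp2d3 had 2153, 2122, 2539 and 2411 in vehicle, 1527, 1576, 688, 1517 and 1649.7 at 20 mg/kg/day and 780.4, 723, 1045 and 873 at 100 mg/kg/day in study 2. The arrays fell into separate ranges for vehicle and both doses, apart from 20 mg/kg/day replicate 3, which was the lowest of all. This was a log2 fold change of -1.44 ± 0.26 (SE; limma adjusted p = 5.66e-05) at 100 mg/kg/day and -0.79 ± 0.24 (SE; limma adjusted p = 0.0532) at 20 mg/kg/day, where it was not called. With R2 it was -0.64 ± 0.24 (SE; limma adjusted p = 0.0657) and at 30 mg/kg/day after 336 h -0.69 ± 0.24 (SE; limma adjusted p = 0.0582). Cyp2d2 was called in 0 of the 7 comparisons (0 at an unadjusted p under 0.05 in limma), with group means between 4184 and 5439 and log2 fold changes between -0.14 and 0.12. For Cyp2d4, the dim probe set U48220_at was called lower at 30 mg/kg/day after 336 h (1.93, 10.3, 5.49 and 1.78 against 23.7, 14.0, 3.69, 12.7 and 17.2 in vehicle), with a log2 fold change of -1.14 ± 0.37 (SE; limma adjusted p = 0.0381) and overlapping groups. This call ended when any 1 of 7 of the 9 arrays compared was left out, with a limma adjusted p of up to 0.161. Its brighter probe set, rc_AA997886_s_at, gave -0.25 ± 0.25 (SE; limma adjusted p = 0.662) in the same comparison.

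Cyp2e1, the ethanol-oxidising P450 of pericentral hepatocytes, was called lower by all 3 of its probe sets with 100 mg/kg/day R1 after 336 h. S48325_s_at had 7103, 5756, 6609.9 and 6990.1 in vehicle, 5155, 4365, 5309, 4709 and 4605 at 20 mg/kg/day and 3138, 3934, 3695 and 3469.9 at 100 mg/kg/day in study 2. The highest dose lay below all vehicle arrays and all arrays of the lower dose in that study. Its log2 fold change at 100 mg/kg/day was -0.89 ± 0.20 (SE; limma adjusted p = 0.00106), that of M20131cds_s_at -0.77 ± 0.19 (SE; limma adjusted p = 0.00414) and that of AF056333_s_at -0.74 ± 0.18 (SE; limma adjusted p = 0.0027). At 20 mg/kg/day S48325_s_at gave -0.45 ± 0.19 (SE; limma adjusted p = 0.201) and was not called. With R2, S48325_s_at had 2411, 2604, 5062, 3934 and 3501 against 6408, 5258, 3934 and 4953 in vehicle, with overlapping groups. The log2 fold change was -0.58 ± 0.19 (SE; limma adjusted p = 0.0261) for S48325_s_at, -0.71 ± 0.17 (SE; limma adjusted p = 0.00217) for AF056333_s_at and -0.33 ± 0.18 (SE; limma adjusted p = 0.238) for M20131cds_s_at. The R2 call of S48325_s_at ended without vehicle replicates 1 or 2 or R2 300 mg/kg/day replicates 1 or 2, with a limma adjusted p of up to 0.123. None of the 3 was called at 30 mg/kg/day after 336 h, with log2 fold changes of -0.10, -0.16 and -0.44 (limma adjusted p of 0.852, 0.714 and 0.0881). The effect of 100 mg/kg/day after 336 h minus that after 24 h was -1.21 ± 0.30 (SE; limma adjusted p = 0.00903) for S48325_s_at and -0.94 ± 0.27 (SE; limma adjusted p = 0.0286) for AF056333_s_at, while M20131cds_s_at gave -0.72 ± 0.29 (SE; limma adjusted p = 0.177) and was not called. The first of these calls ended without R1 100 mg/kg/day of study 1 replicate 2, with a limma adjusted p of up to 0.0787. The second ended when any 1 of 6 of the 14 arrays compared was left out, with a limma adjusted p of up to 0.141. The studies behind these differences have different vehicle levels. For S48325_s_at the vehicle means were 6615 in study 2, 3396 in study 1, 5138 in study 4 and 5353 in study 3. The mean of 3559 at 100 mg/kg/day after 336 h was thus above the vehicle mean of study 1. Study 2 also had the highest vehicle mean for the other probe sets of the gene.

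Cyp2j3, an arachidonic acid epoxygenase, was called lower by a different probe set in different comparisons. U39943_s_at had 89.7, 89.8, 77.3, 165 and 231 with R2 against 237, 284, 349 and 317 in vehicle, with no overlap, and a log2 fold change of -1.28 ± 0.24 (SE; limma adjusted p = 0.000132). U40004_s_at gave -0.64 ± 0.25 (SE; limma adjusted p = 0.068) there and was not called. After 336 h U40004_s_at was called lower at 30 mg/kg/day (-0.73 ± 0.25, limma adjusted p = 0.0449) and 100 mg/kg/day (-0.80 ± 0.26, limma adjusted p = 0.0384), where U39943_s_at gave -0.36 and -0.45 (limma adjusted p of 0.458 and 0.34). The call at 30 mg/kg/day ended without R1 30 mg/kg/day replicates 2 or 3 or vehicle replicates 1, 2 or 5, with a limma adjusted p of up to 0.3. Without R1 replicate 2 its value was -0.46. The call at 100 mg/kg/day ended when any 1 of 6 of the 8 arrays compared was left out, with a limma adjusted p of up to 0.138. The probe sets had the same sign in these 3 comparisons and were called in different ones.

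Among CYP2A, 2B and 2F genes, all calls with R2 were lower. Cyp2b3, a member of the 2B subfamily that liver is known to express without phenobarbital, had 755, 769.8, 1397, 1857 and 1221 with R2 against 3115, 1931, 2109 and 2715 in vehicle for M20406_at, with no overlap. On the log2 scale, treated minus vehicle was -1.10 ± 0.21 (SE; limma adjusted p = 0.000186) for M20406_at and -1.04 ± 0.22 (SE; limma adjusted p = 0.000469) for rc_AI169735_g_at, while the excluded relative Cyp2b2 was called higher, with 2.27 ± 0.28 (SE; limma adjusted p = 5.77e-08). In study 3, rc_AI169735_g_at gave 401, 446, 463 and 488 at 30 mg/kg/day against 733, 637, 655, 842 and 797 in vehicle, with no overlap. Limma gave a log2 fold change of -0.70 ± 0.22 (SE; limma adjusted p = 0.0288). This call ended without R1 30 mg/kg/day replicates 1, 2 or 3 or vehicle replicates 4 or 5, with a limma adjusted p of up to 0.0852. M20406_at gave -0.50 ± 0.21 (SE; limma adjusted p = 0.146) there and was not called. Another probe set of the gene, rc_AI169735_at, described after its values were seen, had log2 fold changes of -3.28, -3.47 and -4.16 at 10, 30 and 100 mg/kg/day after 24 h without being called (limma adjusted p of 0.439, 0.378 and 0.109). Its arrays within a group were far apart, with 308, 256 and 233 in vehicle, 158, 118, 1.55 and 3.71 at 10 mg/kg/day, 311, 1.99 and 6.26 at 30 and 1.6, 6.75 and 73.1 at 100, and with R2 175, 112, 9.26, 1.04 and 5.78 against 12.5, 159, 216 and 1.45 in vehicle.

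Cyp2f4, related to the P450s that activate naphthalene in airway cells, was called lower in 2 comparisons. It had 139, 144, 94.9, 184 and 145 with R2 against 194, 296, 273 and 246 in vehicle, and 218, 171, 136 and 133 with 30 mg/kg/day R1 after 336 h against 274, 325, 284, 307 and 336 in vehicle, with no overlap in either pair. This was a log2 fold change of -0.84 ± 0.19 (SE; limma adjusted p = 0.00133) with R2 and -0.90 ± 0.19 (SE; limma adjusted p = 0.00071) at 30 mg/kg/day. At 100 mg/kg/day after 336 h it was -0.15 ± 0.20 (SE; limma adjusted p = 0.771), with means of 162 against 177 in a vehicle group lower than that of study 3 (305). Cyp2b15, measured by a probe set marked as shared within its family, was called higher at 20 mg/kg/day after 336 h. It had 70.5, 69.2, 67.9 and 65.7 in vehicle, 159.7, 101, 122, 181 and 152 at 20 mg/kg/day and 81.0, 134, 98.0 and 109 at 100 mg/kg/day. Both doses lay above the vehicle arrays, and the log2 fold change was 1.01 ± 0.22 (SE; limma adjusted p = 0.00221) at 20 and 0.59 ± 0.23 (SE; limma adjusted p = 0.11) at 100 mg/kg/day. The excluded Cyp2b2 was called higher in the same comparisons, by 2.17 and 1.94, and whether its RNA binds to the Cyp2b15 probes was not tested.

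Of 7 tested CYP4 genes, which mostly hydroxylate fatty acids and eicosanoids, 1 was called in each of 3 comparisons with vehicle, all lower. Cyp4f1 had 883, 883, 769.8, 1173 and 1361 with R2 against 1300.1, 2253, 2049 and 1994 in vehicle, with overlap only through vehicle replicate 1, and a log2 fold change of -0.91 ± 0.21 (SE; limma adjusted p = 0.00124). Cyp4f6 had 718, 797 and 631 in vehicle, 550.3, 363, 479 and 587 at 10 mg/kg/day, 729, 494 and 501 at 30 and 432, 335 and 372 at 100 mg/kg/day after 24 h. The highest dose lay below all vehicle arrays, and the log2 fold change was -0.91 ± 0.25 (SE; limma adjusted p = 0.0185), the single member called after 24 h of R1. This call ended without vehicle replicates 1 or 2 or R1 100 mg/kg/day replicates 2 or 3, with a limma adjusted p of up to 0.0964. Cyp4b1, which acts on short-chain fatty acids and plant toxins, was dim, with 30.8, 36.1, 27.9 and 26.0 in vehicle, 22.1, 24.1, 7.74, 19.6 and 27.7 at 20 mg/kg/day and 17.2, 3.72, 18.0 and 3.27 at 100 mg/kg/day after 336 h. The highest dose did not overlap the vehicle arrays, and the log2 fold change was -1.52 ± 0.34 (SE; limma adjusted p = 0.00123). Its effect at 336 h minus that at 24 h was -2.31 ± 0.52 (SE; limma adjusted p = 0.00342), called under every alternative and with each array left out. In study 1 its vehicle arrays were 7.74, 5.35 and 19.3, against 27.6, 15.3 and 15.0 at 100 mg/kg/day, a difference of opposite sign that was not called (0.78 ± 0.39, limma adjusted p = 0.3). Cyp4a3, an acid omega-hydroxylase regulated by PPAR alpha, was not called against vehicle, and differed between 100 and 20 mg/kg/day after 336 h by -1.33 ± 0.33 (SE; limma adjusted p = 0.00851). That call ended without R1 100 mg/kg/day replicate 1, with a limma adjusted p of up to 0.145. Without that array the difference was -0.85. Cyp4f4, Cyp4f5 and Cyp4f17 were called in 0 of the 7 comparisons (3, 0 and 2 at an unadjusted p under 0.05 in limma). Cyp4f4 had log2 fold changes between -0.69 and -0.22 in all 7, and Cyp4f17 between 0.12 and 1.15.

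Among the P450s of sterol and bile acid metabolism, Cyp7b1, the oxysterol 7-alpha-hydroxylase of the acidic bile acid pathway, was called lower with 30 mg/kg/day R1 after 336 h. It had 12.8, 11.3, 10.1 and 2.88 at 30 mg/kg/day against 21.5, 32.7, 41.4, 27.7 and 40.1 in vehicle, with no overlap. The log2 fold change was -1.61 ± 0.26 (SE; limma adjusted p = 8.91e-06). In study 2 the vehicle arrays were 17.9, 15.9, 16.5 and 13.6, lower than all vehicle arrays of study 3, and 100 mg/kg/day gave 11.6, 16.3, 20.8 and 8.68, with a log2 fold change of -0.18 ± 0.27 (SE; limma adjusted p = 0.805). With R2 it had 17.5, 20.2, 16.1, 18.7 and 16.5 against 22.6, 27.6, 24.5 and 28.7 in vehicle, with no overlap but no call (-0.47 ± 0.26, limma adjusted p = 0.226). The effect of 30 mg/kg/day after 336 h minus that after 24 h was -1.79 ± 0.40 (SE; limma adjusted p = 0.0142). This difference ended without vehicle of study 1 replicates 1 or 2, with a limma adjusted p of up to 0.0613. The studies behind it have different vehicle levels, with means of 32.7 in study 3 and 14.3 in study 1. Cyp27a1, the mitochondrial sterol 27-hydroxylase that starts that pathway, was called by neither of its probe sets (1 of 7 comparisons each at an unadjusted p under 0.05 in limma), with log2 fold changes between -0.41 and 0.50, and the excluded Cyp7a1, the rate-limiting enzyme of the classic pathway, was called lower with R2 (-4.65, limma adjusted p = 3.66e-07).

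The remaining members were dim or not tested. Cyp24a1, which inactivates vitamin D, Cyp27b1, which activates it, and Cyp26b1, which breaks down retinoic acid, had 1 tested probe set each, and none was called in the 7 comparisons (0, 0 and 1 at an unadjusted p under 0.05 in limma). Their log2 fold changes ranged from -0.17 to 0.87, -0.39 to 0.89 and -0.34 to 0.86. Cyp27b1 passed the intensity filter only through 30 mg/kg/day after 24 h (mean 9.38), and Cyp26b1 only through 10 mg/kg/day after 24 h (mean 9.92). Those groups therefore had to stand above the others. Cyp21a1, the adrenal steroid 21-hydroxylase, was not called either (2 at an unadjusted p under 0.05 in limma), with log2 fold changes between -1.11 and 0.28, nor was Cyp2a3, an olfactory and lung enzyme in rats, between -0.61 and 0.41 (0 at an unadjusted p under 0.05 in limma). Cyp11a1, Cyp11b2 and Cyp19a1, of steroid hormone synthesis, and Cyp2b12 and Cyp2g1 did not pass the intensity filter with any probe set, and no array was above 19.5 for the 11 probe sets not tested.

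**Figure D5:**
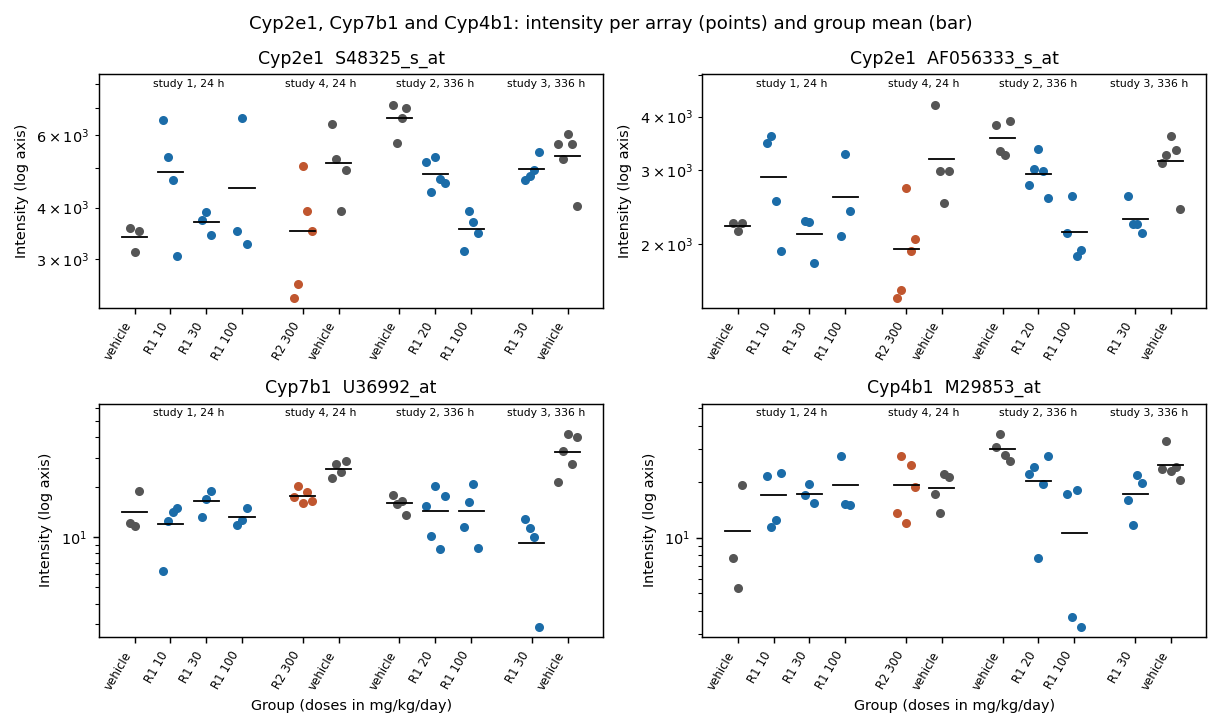
Intensity on a log axis (vertical) on each array of 2 probe sets of Cyp2e1 and of Cyp7b1 and Cyp4b1, by group (horizontal; vehicle grey, R1 blue, R2 orange; doses in mg/kg/day), with the group mean as a bar. The S48325_s_at arrays of Cyp2e1 at 100 mg/kg/day after 336 h lie between 3138 and 3934, below the vehicle arrays of that study, and the Cyp7b1 arrays at 30 mg/kg/day after 336 h lie below those of their vehicle group.

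Doses and times could be compared directly in few cases. Between 100 and 10 mg/kg/day after 24 h, 0 member probe sets were called (4 at an unadjusted p under 0.05 in limma), where 3.98% of all tested were (2.31% higher, 1.67% lower). Between 100 and 20 mg/kg/day after 336 h, 3 were called (Cyp2c22 higher, Cyp4a3 lower, and Cyp1a1, which passed the filter only through the 100 mg/kg/day group, higher), where 4.07% of all tested were (2.09% higher, 1.98% lower). The effect of 30 mg/kg/day differed between 336 h and 24 h for 1 probe set, of Cyp7b1 (lower; 0.959% of all tested, 0.503% higher and 0.456% lower), and that of 100 mg/kg/day for 7, of Cyp1a1, Cyp1a2, Cyp2c22, Cyp2e1 and Cyp4b1 (2 higher, among them Cyp1a1 with the same limit, and 5 lower; 5.3% of all tested, 2.17% higher and 3.13% lower). These differences set 2 studies, each with its own vehicle group, against each other, so study and time cannot be told apart. R1 and R2 were given at different doses in different studies. Side by side, 14 probe sets were called lower with 300 mg/kg/day of R2 after 24 h, where 7.88% of all tested were. With 100 mg/kg/day of R1 after 24 h 1 was called lower, where 2.44% of all tested were. No test between the compounds was made.

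The 13 excluded P450s, which were set apart with results of these data known, were called in both directions. By gene, 3 were called higher and 0 lower at 10 mg/kg/day after 24 h (all tested probe sets: 1.04% and 0.204%). At 30 mg/kg/day there were 4 and 0 (1.48% and 0.252%), and at 100 there were 3 and 1 (3.96% and 2.44%). With R2 there were 6 and 2 (7.44% and 7.88%), where the members gave 0 higher and 8 lower by gene. The 13 were set apart with results known, so this difference in direction is not read as a result and was not tested. After 336 h the 13 gave 5 and 2 at 20 mg/kg/day (2.55% and 1.89%) and 4 and 3 at 30 (5.27% and 6.01%). At 100 mg/kg/day they gave 4 and 4 (5.11% and 5.2%). Cyp3a23-3a1, the classic target of the pregnane X receptor, was higher in all 7 comparisons, by 1.73 to 3.10 on the log2 scale. Por, which passes electrons to all microsomal P450s, was called higher at 10, 30 and 100 mg/kg/day after 24 h (1.94, 2.12 and 2.28), with R2 (1.70) and at 30 mg/kg/day after 336 h (1.99). Of 6 tested electron donor genes it was the one called most often. None of them was called lower against vehicle, where 0.204% to 7.88% of all tested probe sets were. Alas1, the first enzyme of heme synthesis, was called higher at 30 and 100 mg/kg/day after 24 h (1.21 and 1.63), with R2 (1.52) and at 30 mg/kg/day after 336 h (0.92). Hmox1, which breaks heme down, was called higher at 100 mg/kg/day after 24 h (2.06), with R2 (2.08) and at 30 and 100 mg/kg/day after 336 h (0.87 and 1.35). With R2, 2 of the 6 tested heme genes were called lower, the heme synthesis genes Urod (-0.48) and Ppox (-0.54), beside the 2 called higher. Of all tested probe sets, 7.88% were called lower and 7.44% higher there. Of 11 tested regulators of P450 genes, 3 were called lower with R2, where 7.88% of all tested probe sets were. They were Arnt, the partner of the aryl hydrocarbon receptor (-0.91), Cebpa, a hepatocyte factor (-0.84), and Dbp, a circadian factor (-1.50). The glucocorticoid receptor gene Nr3c1 was called lower at 30 mg/kg/day after 336 h (-1.23), and Hnf4a was called higher at 100 mg/kg/day after 24 h (0.80).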

How the data were processed

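Liver RNA was hybridised as biotin-labelled cRNA to 44 Affymetrix rat arrays with 8799 probe sets, per the labels' protocols. The deposited values are MAS5 intensities, per the submitters' processing notes, whose version and scaling target are not given in the sources used here. All 44 arrays hold the same sorted intensities (largest difference 0), so they had also been quantile-normalised, a step the labels do not state. The deposited intensities ran from 0.056 to 13236 with a median of 14.5 on every array.

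Log2(intensity + 2.9) was fitted here with limma 3.58.1 in R 4.3.3 for all 11 groups at once, with the trended empirical Bayes fit. The constant is percentile 20 of all values. The 59 control probe sets were left out, and 6361 probe sets whose highest group mean reached 9.17 (percentile 40) were tested. P-values were Benjamini-Hochberg adjusted over all of them within each comparison. Tables and figures were made with Python 3.11.15, numpy 2.4.6, pandas 2.3.3 and matplotlib 3.10.9, and the fit was tested on simulated data. Array annotation gave 7006 probe sets 1 symbol, 308 several and 1426 none, and all 36 member symbols were the same in RefSeq GRCr8. Of these, 28 had a promoter sequence, from RefSeq GRCr8.

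Probe sets called in at least 1 of 7 comparisons with vehicle were named with values (at most 25 of them, largest change first, with values per array), as were chosen genes of known function whatever their result. Members and lists were chosen with earlier results of these data known. Cyp2d1, Cyp4a2, Cyp8b1, Cyp26a1 and Cyp39a1 were not analysed here. Arrays with the same replicate number did not deviate together (correlations of deviations from group means between -0.0899 and 0.153 over 38 pairs, 4 of them over 0.1), so the numbers were not taken as pairs. Alternatives changed the constant, the filter, the arrays fitted, the trend, the centring, the probe sets per gene, the replicate block, array weights and each array in turn.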

Additional observations from a re-analysis of the deposited data

Results flagged for a closer look

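Among 272 groups of 4 or 5 arrays looked at over 34 named probe sets, 16 held an array far from the rest of its group, where chance gives about 1 in 20. In the R1 group at 20 mg/kg/day (336 h), replicate 3 was the low array for Cyp2a1 (362, others 738 to 971), Cyp2a2 (382, others 788 to 944), Cyp2d2 (2653, others 4663 to 5636), Cyp2d3 (688, others 1517 to 1649.7), Cyp4f1 (571, others 1132 to 1237) and Cyp4f6 (343, others 413 to 424), and replicate 5 was low for Cyp1b1 by X83867cds_s_at (0.971, others 8.36 to 11.6). In that at 100 mg/kg/day (336 h), replicate 1 was low for Cyp1a2 by M26127_s_at (383, others 648 to 719.6) and by K03241cds_s_at (106, others 313 to 387). In that at 30 mg/kg/day (336 h), replicate 3 was high for Cyp2c12 by M33550cds_s_at (262, others 14.3 to 24.3) and replicate 2 was low for Cyp2c22 (2164, others 3115 to 3339). With R2, replicate 2 was high for Cyp26b1 (13.9, others 1.74 to 3.66).

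The other 4 were vehicle arrays. In study 3, replicate 3 was high for Cyp1a1 (4.69, others 1.37 to 1.94) and replicate 5 was low for Cyp1a2 by M26127_s_at (749, others 1347 to 1655). In study 2, replicate 3 was high for Cyp4f1 (1501, others 1110.0 to 1166), and in study 4 replicate 1 was low for Cyp4f6 (341, others 472 to 498). Without replicate 3 at 20 mg/kg/day, the same 5 member probe sets were called there as with it. What set these arrays apart was not tested.

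The effect of R1 was called different between 336 h and 24 h by limma for 8 probe sets, Cyp1a1 included, as log2 fold change after 336 h minus that after 24 h. At 100 mg/kg/day the difference was 1.31 for Cyp2c22, -1.69 and -1.96 for Cyp1a2 by E01184cds_s_at and K03241cds_s_at, -1.21 and -0.94 for Cyp2e1 by S48325_s_at and AF056333_s_at, and -2.31 for Cyp4b1. That of Cyp1a1 was 1.57, but it was tested only because its 336 h group passed the filter, and it is not used as a test result. At 30 mg/kg/day the difference was -1.79 for Cyp7b1. Each time point was a separate study, so study and time cannot be told apart.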

How the results depend on the processing

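Of 54 calls of single probe sets, 34 remained calls under all alternatives that included them, 31 of them among the 43 calls against vehicle, and over 1025 alternative values none changed sign. These counts include the calls of Cyp1a1, which the intensity filter favoured. Leaving out 1 array ended 19 calls, and 1 or more of the 10 other settings ended 14. The count at 100 mg/kg/day after 24 h (1 probe set) became 2 with a filter at percentile 60, with study 1 alone or with the replicate block, 3 with quality weights on the arrays (added after seeing the data), and 0 to 2 without 1 array. With 1 probe set per gene the counts became 8 with R2 and 3, 4 and 8 at 20, 30 and 100 mg/kg/day after 336 h, since fewer probe sets were then counted. The count for the difference between times at 100 mg/kg/day became 3, where the refit also ended the call of Cyp1a1. Weighting arrays gave 8 at 20 mg/kg/day after 336 h. Leaving out 1 array gave 5 to 10 at 30 mg/kg/day after 336 h. With only the studies compared in the fit, 2 probe sets were called between 100 and 10 mg/kg/day, 1 between 100 and 20 mg/kg/day, and 0 for the difference between times at 30 mg/kg/day. That last count was 0 to 1 without 1 array (0 without vehicle replicate 1 or 2 of study 1). The difference between times at 100 mg/kg/day gave 4 without the trend and 3 to 7 without 1 array. The cause of these moves was not tested beyond that.

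With the replicate number as a block, the counts in the 7 comparisons with vehicle were 0, 0, 2, 16, 5, 6 and 15, in the order 10, 30 and 100 mg/kg/day of R1 after 24 h, R2, and 20, 30 and 100 mg/kg/day after 336 h. They were 0 and 3 between doses and 1 and 6 between times at 30 and 100 mg/kg/day. The block ended 5 calls. The limma adjusted p became 0.0506 for Cyp2b3, 0.0953 for Cyp2d4 and 0.0943 for Cyp2j3 at 30 mg/kg/day after 336 h, and 0.0537 for Cyp2c22 at 20 mg/kg/day. The remaining call was the difference between times of Cyp1a1, for which no p-value is given. The replicate numbers name arrays and were not shown to pair them, so these are not read as weaker effects. Members with group means near the filter level of 9.17, among them Cyp1a1, have the least signal over background.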
